A study of Mus musculus with 12 samples.

Results

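The genes described here encode proteins of the mitochondrial ribosome. They were taken from the count tables by symbol: Mrpl or Mrps followed by a digit, without pseudogene symbols, and with at least 120 counts summed over the 12 libraries. Of 83 matching entries, 5 were pseudogene symbols and 2 fell under the count minimum, which left 76 genes (47 Mrpl and 29 Mrps) of the 46078 listed. The rule uses symbols and summed counts, not differences between treatments. The entries under the minimum were Mrpl53 and a second Ensembl identifier for Mrps23, both at 0 counts. Mrpl53 (chr6:83109040-83109939, plus strand, GRCm38) shares 88.0% of its exon bases with the gene model Gm42688 on the same strand, and how the authors' counting treats reads that fit 2 genes is not given in the sources used here. All 76 genes passed the filter on low counts and were tested.

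The mitochondrial ribosome translates the few messenger RNAs that mitochondrial DNA encodes, all of them for subunits of the respiratory chain and ATP synthase. Its own proteins are encoded in the nucleus, made in the cytosol and imported. Some descend from proteins of the bacterial ribosome, and others were added during the evolution of mitochondria. T cells expand their mitochondria after activation, and mitochondrial translation sustains effector functions such as killing by cytotoxic T cells.

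The cells were CD8 T cells from the spleen of C57BL/6 mice, harvested after 7 days of culture. IL-2 and IL-15, interleukins that sustain activated CD8 T cells, were in the medium of all 4 groups of 3 samples. The IL-2 + IL-15 group received nothing else, the RA group received all-trans retinoic acid, the TGFβ group received transforming growth factor beta, and the TGFβ + RA group received both. Retinoic acid, made from vitamin A, is the ligand of a family of nuclear receptors, and TGFβ is a cytokine that signals through SMAD proteins. The labels call the samples biological replicates without saying whether each came from its own animal, so the p-values reflect only how these samples vary, which may be technical.

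Libraries held 18300206 to 33477037 counts. Values below are CPM, counts scaled by library size with the TMM method, and a gene was called changed at a Benjamini-Hochberg adjusted p under 0.05 over 14009 genes in edgeR's quasi-likelihood test. RA replicate 3 and IL-2 + IL-15 replicate 1 differed most from the other libraries of their groups, with chi-square statistics, divided by their degrees of freedom, of 20.4 to 24.0 and of 9.27 to 12.5, against 3.79 to 7.86 for the other pairs. TGFβ + RA replicate 3 held the highest summed level of 6 myeloid markers, 22.8 CPM, where the other groups reached at most 1.18. These 3 libraries stand apart, and counts that rest on them are given with and without them. All 6 CD8 T cell markers were found in every group, at summed levels of 3660 to 4240 CPM without TGFβ and 6390 to 7460 CPM with it. Among them Cd2 went the other way, with means of 423 (IL-2 + IL-15), 424 (RA), 306 (TGFβ) and 304 CPM (TGFβ + RA). The 5 erythroid and stromal markers summed to 75.5 to 103 CPM without TGFβ and 57 to 75.2 CPM with it, mostly from Pecam1 (mean 97.5 CPM in IL-2 + IL-15). The 4 B cell markers summed to at most 0.717 CPM. The 3 NK cell markers summed to 86.3 to 181 CPM without TGFβ and 22.3 to 42.2 CPM with it, and the 3 CD4 T cell markers to 65.4 to 87.1 and 26.7 to 35.9 CPM. Each sum was mostly 1 transcription factor gene: in IL-2 + IL-15, Eomes had a mean of 129.5 CPM while Ncr1 had 0.0199, and Zbtb7b had 66.9 CPM while Cd4 had 1.32. Whether these shifts have a part in the differences below was not tested.

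The promoters of 67 of the 76 genes were found in the RefSeq table for GRCm38.p6, each a window from 250 bases before to 50 bases after the transcription start. The windows were searched on both strands for exact letters known from promoters of nuclear-encoded mitochondrial genes. The core GCATGCGC of the site of NRF1, a transcription factor of respiratory genes, was in 8 windows (11.9%) against 3.61% of all 17492 protein-coding promoters, and its longer form, the core preceded by GC and so overlapping it, was in 3 (4.48%) against 1.32%. The letters CCGGAAG, bound by ETS factors such as GABP (NRF2), were in 23 windows (34.3%) against 11.9%. The YY1 letters AAGATGGCG were in 8 (11.9%) against 1.94%. The E-box CACGTG, bound by Myc and Max among others, was in 5 (7.46%) against 7.90% of all promoters. At least 1 of the NRF1 core, ETS and YY1 motifs stood in 33 of 67 windows (49.3%), against 16.3% of all. A match is a description of the letters and not evidence that a factor binds there.

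The promoters below show the range of these architectures among genes whose RNA behaved differently, with motif letters in capitals. Mrpl33, Mrps18b, Mrpl32 and Mrpl12 had lower RNA with TGFβ, Mrpl9 was higher with RA and lower with TGFβ, and Mrpl39 and Mrps18a were called in no contrast. Mrpl33 (chr5:31613701-31614000, plus strand) holds an NRF1 core and an ETS motif, and Mrps18b (chr17:35916391-35916690, minus strand) holds both kinds as well. Mrpl32 (chr13:14612988-14613287, minus strand), Mrpl9 (chr3:94443086-94443385, plus strand) and Mrpl39 (chr16:84735195-84735494, minus strand) are the 3 with the longer NRF1 form. Mrps18a (chr17:46110754-46111053, plus strand) holds an ETS and a YY1 motif, and Mrpl12 (chr11:120484387-120484686, plus strand) holds none of the letters searched.
Mrpl33: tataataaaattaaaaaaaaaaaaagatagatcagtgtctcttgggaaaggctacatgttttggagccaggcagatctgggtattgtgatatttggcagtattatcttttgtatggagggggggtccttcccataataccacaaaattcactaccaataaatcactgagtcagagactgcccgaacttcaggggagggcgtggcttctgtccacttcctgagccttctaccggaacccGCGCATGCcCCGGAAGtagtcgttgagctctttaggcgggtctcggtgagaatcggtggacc
Mrps18b: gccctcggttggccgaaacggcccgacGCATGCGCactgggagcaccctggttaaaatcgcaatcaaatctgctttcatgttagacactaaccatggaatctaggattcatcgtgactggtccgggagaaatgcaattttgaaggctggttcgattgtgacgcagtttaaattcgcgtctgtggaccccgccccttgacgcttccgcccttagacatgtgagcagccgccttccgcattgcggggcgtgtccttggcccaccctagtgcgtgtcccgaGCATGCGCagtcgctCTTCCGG
Mrpl32: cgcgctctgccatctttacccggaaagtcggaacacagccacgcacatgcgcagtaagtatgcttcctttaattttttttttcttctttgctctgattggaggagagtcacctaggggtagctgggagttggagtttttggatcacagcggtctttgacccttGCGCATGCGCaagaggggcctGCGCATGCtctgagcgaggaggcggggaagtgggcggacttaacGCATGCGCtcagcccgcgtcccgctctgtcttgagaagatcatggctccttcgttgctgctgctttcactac
Mrpl9: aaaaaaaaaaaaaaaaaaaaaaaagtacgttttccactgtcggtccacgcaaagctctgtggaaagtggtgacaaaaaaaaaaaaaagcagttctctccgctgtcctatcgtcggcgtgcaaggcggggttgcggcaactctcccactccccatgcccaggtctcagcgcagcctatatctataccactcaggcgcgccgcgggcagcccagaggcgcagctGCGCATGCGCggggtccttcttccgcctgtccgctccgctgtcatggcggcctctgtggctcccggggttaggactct
Mrpl39: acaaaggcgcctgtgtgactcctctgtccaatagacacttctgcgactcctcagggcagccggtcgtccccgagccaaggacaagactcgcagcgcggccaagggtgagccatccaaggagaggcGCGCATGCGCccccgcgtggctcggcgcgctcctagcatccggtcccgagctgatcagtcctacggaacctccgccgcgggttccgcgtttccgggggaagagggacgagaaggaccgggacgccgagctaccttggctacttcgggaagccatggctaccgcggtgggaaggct
Mrps18a: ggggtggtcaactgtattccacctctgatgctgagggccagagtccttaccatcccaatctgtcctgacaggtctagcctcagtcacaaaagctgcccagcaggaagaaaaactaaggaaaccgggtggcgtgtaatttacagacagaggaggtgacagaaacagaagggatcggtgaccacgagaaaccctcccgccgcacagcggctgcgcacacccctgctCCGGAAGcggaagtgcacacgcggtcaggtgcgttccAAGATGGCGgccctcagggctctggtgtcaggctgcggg
Mrpl12: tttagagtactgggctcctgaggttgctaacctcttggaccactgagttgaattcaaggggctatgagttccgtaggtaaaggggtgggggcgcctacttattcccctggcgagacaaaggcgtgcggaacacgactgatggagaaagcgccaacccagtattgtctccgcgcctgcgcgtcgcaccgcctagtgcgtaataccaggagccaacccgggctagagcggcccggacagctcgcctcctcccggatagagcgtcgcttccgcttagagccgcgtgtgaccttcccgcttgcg

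In the genome the 76 genes lie on 17 chromosomes, with 10 on chromosome 11 and 8 on chromosome 17. Of them, 25 (32.9%) start within 500 bases of the start of a protein-coding gene on the other strand, against 8.97% of the 21519 protein-coding genes in the tables. Such head-to-head pairs include Mrps12 with Sars2, the mitochondrial seryl-tRNA synthetase, and Mrpl46 with Mrps11, where both genes encode mitoribosomal proteins. Exons of 26 genes overlap an exon on the opposite strand, by over 10% of their exon bases in 14 cases, and 7 overlap a gene on the same strand, 4 of them by over 10%. The kit marks strand, but the strand setting of the counting is not given in the sources used here, so reads in these stretches cannot be assigned with certainty.

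Per length, the 76 genes had a median of 10.8 RPKM (reads scaled for exon length and library size) over the 12 libraries, with quartiles at 6.07 and 20.6. The highest levels were Mrpl24 (54.9 RPKM), Mrpl10 (38.5 RPKM), Mrpl34 (38.2 RPKM), Mrps23 (36.6 RPKM) and Mrpl18 (36.3 RPKM). The lowest were Mrps10 (2.00 RPKM), Mrpl17 (2.18 RPKM), Mrpl23 (2.42 RPKM), Mrps22 (2.43 RPKM) and Mrps25 (2.61 RPKM), a 27.4-fold range. These lengths are the union of annotated exons, which counts long untranslated ends that a cell may not use. In Mrps25, 69.8% of the exon bases overlap the opposite-strand gene Nr2c2.

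By library totals, the genes as a group took a similar share of all counts in each treatment. The share was 0.247%, 0.233% and 0.228% in the IL-2 + IL-15 libraries (mean 0.236% ± 0.00976, SD, n = 3) and 0.243%, 0.245% and 0.232% with RA (0.240% ± 0.00723). It was 0.226%, 0.223% and 0.230% with TGFβ (0.226% ± 0.00335) and 0.227%, 0.231% and 0.230% with TGFβ + RA (0.229% ± 0.00217). The TGFβ and TGFβ + RA libraries overlapped with the lowest of the IL-2 + IL-15 libraries. After TMM scaling, the groups did not overlap. The summed level was 2345 to 2541 CPM in the 6 libraries without TGFβ and 2177 to 2258 CPM in the 6 with it. Other levels here use TMM scaling too, apart from shares of counts and cell marker levels. The 77 cytosolic ribosomal protein genes, which build the ribosome that translates nuclear messages, took 8.69% ± 0.288, 9.12% ± 0.687, 5.50% ± 0.130 and 4.87% ± 0.351 in the same order, with no overlap between libraries with and without TGFβ. In bulk samples, fewer cells of a type and less RNA per cell cannot be told apart in any of these values.

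**Figure D1:**
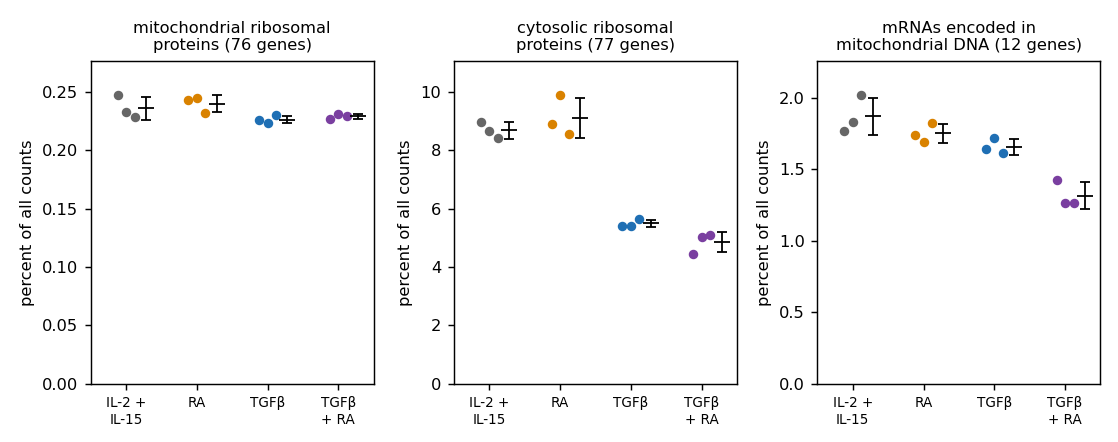
Percent of all counts (y axis, from 0) taken by the 76 mitochondrial ribosomal protein genes, 77 cytosolic ribosomal protein genes and 12 mRNAs of mitochondrial DNA, by treatment (x axis). Points are the 3 libraries of a treatment and bars their mean ± SD. The first panel stays between 0.223% and 0.247% in all libraries, while the second drops from between 8.41% and 9.88% without TGFβ to between 4.46% and 5.65% with it.

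With TGFβ alone, 24 of the 76 genes fell and 0 rose against IL-2 + IL-15 (edgeR, adjusted p under 0.05). Over all genes tested, 22.4% were called lower and 20.7% higher. The members' share called lower was 31.6%, and their share called higher was 0%. The median log2 fold change of the 76 was -0.14, against 0.00 over all genes, and 63 of the 76 were negative. Among the genes that encode large subunit proteins 18 of 49 fell, and among those of the small subunit 6 of 26. The count of 0 higher stood beside 1 gene at an unadjusted p under 0.05, 0 calls by DESeq2 and 1 with DESeq2 size factors in edgeR. Scaled by library totals alone, the split was 4 higher and 15 lower (19.7% lower, against 18.2% of all genes), with a median of -0.07 for the members and 0.07 for all genes. Without IL-2 + IL-15 replicate 1 it was 2 higher and 15 lower (19.7%, against 19.3%), and without the 3 libraries that stand apart 2 higher and 17 lower (22.4%, against 22.1%). In these 3 settings the members' share called lower was near that of all genes. The excess of lower calls over the background thus depends on the scaling and on IL-2 + IL-15 replicate 1. Their share called higher stayed below that of all genes, at 5.26% against 27.6%, 2.63% against 18.1% and 2.63% against 20.8%. The median was -0.11 against 0.00 without IL-2 + IL-15 replicate 1, and the same without the 3 libraries.

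Mrps28, which encodes a small subunit protein, showed the steepest difference. Without TGFβ its levels were 4.81, 5.29 and 5.68 CPM (IL-2 + IL-15) and 6.14, 6.05 and 5.52 CPM (RA). With TGFβ they were 3.37, 2.71 and 3.32 CPM when given alone and 2.38, 2.54 and 3.13 CPM together with RA. All 6 libraries with TGFβ lay below all 6 without it. TGFβ lowered it 1.68-fold against IL-2 + IL-15 (log2 fold change -0.75, SE 0.14, adjusted p = 0.000768), and the difference between TGFβ + RA and RA was 2.19-fold (-1.13, SE 0.14, adjusted p = 1.52e-05). It was the only one of the 76 past a 2-fold difference in any contrast of 2 groups. It is also the gene with the fewest counts, 1303 over the 12 libraries against 2970 for the next. It lies on chromosome 3 (chr3:8802146-8923918, minus strand) without exon overlap, and the RefSeq table gives no promoter for it.

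Mrpl12 forms the stalk of the large subunit and is known also to bind the mitochondrial RNA polymerase. It stood at 50.4, 43.4 and 41.0 CPM in IL-2 + IL-15 and 50.8, 49.8 and 41.4 CPM in RA. With TGFβ it stood at 33.8, 31.9 and 32.4 CPM, and with TGFβ + RA at 28.2, 29.7 and 32.8 CPM. The groups with and without TGFβ did not overlap, and TGFβ lowered it by 0.46 on the log2 scale (SE 0.09, adjusted p = 0.00107). Its promoter, shown above, holds none of the motifs searched, and 13.1% of its exon bases overlap the opposite-strand model Gm16755, which had 42 counts in all.

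Mrpl33, a large subunit protein with a bacterial counterpart, was at 43.7, 39.8 and 37.3 CPM in IL-2 + IL-15 and at 30.4, 30.2 and 28.4 CPM in TGFβ (log2 fold change -0.44, SE 0.06, adjusted p = 6.84e-05). RA libraries lay at 40.7, 38.8 and 38.7 CPM and TGFβ + RA libraries at 24.8, 25.6 and 25.8 CPM, so the 3 libraries with both agents were the lowest. Mrpl23, which in bacteria lines the exit of the peptide tunnel, was at 11.6, 14.9 and 14.4 CPM in IL-2 + IL-15 and at 9.80, 9.34 and 9.41 CPM in TGFβ (-0.52, SE 0.14, adjusted p = 0.0105). Its TGFβ + RA libraries were scattered, at 7.57, 8.91 and 11.4 CPM, all below the RA libraries at 12.9, 17.0 and 14.5 CPM.

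Mrps18b and Mrpl30 complete the 5 largest of these decreases among genes with at least 5 CPM. Mrps18b went from 21.3 ± 0.50 CPM to 15.7 ± 1.30 CPM (SD, n = 3, log2 fold change -0.44, SE 0.07, adjusted p = 0.000343). Of its exon bases 30.5% overlap the opposite-strand model Gm16279, which had 96 counts. Mrpl30, a large subunit protein, went from 101 ± 1.79 CPM to 74.7 ± 2.82 CPM (-0.44, SE 0.07, adjusted p = 0.000353). It starts 66 bases from the start of Mitd1 on the other strand, which was also lower with TGFβ (-0.30, adjusted p = 0.0010). Over the 24 genes with a tested head-to-head partner, 7 partners were lower and 3 higher with TGFβ. Of all genes tested, 22.4% were lower and 20.7% higher in that contrast.

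**Figure D2:**
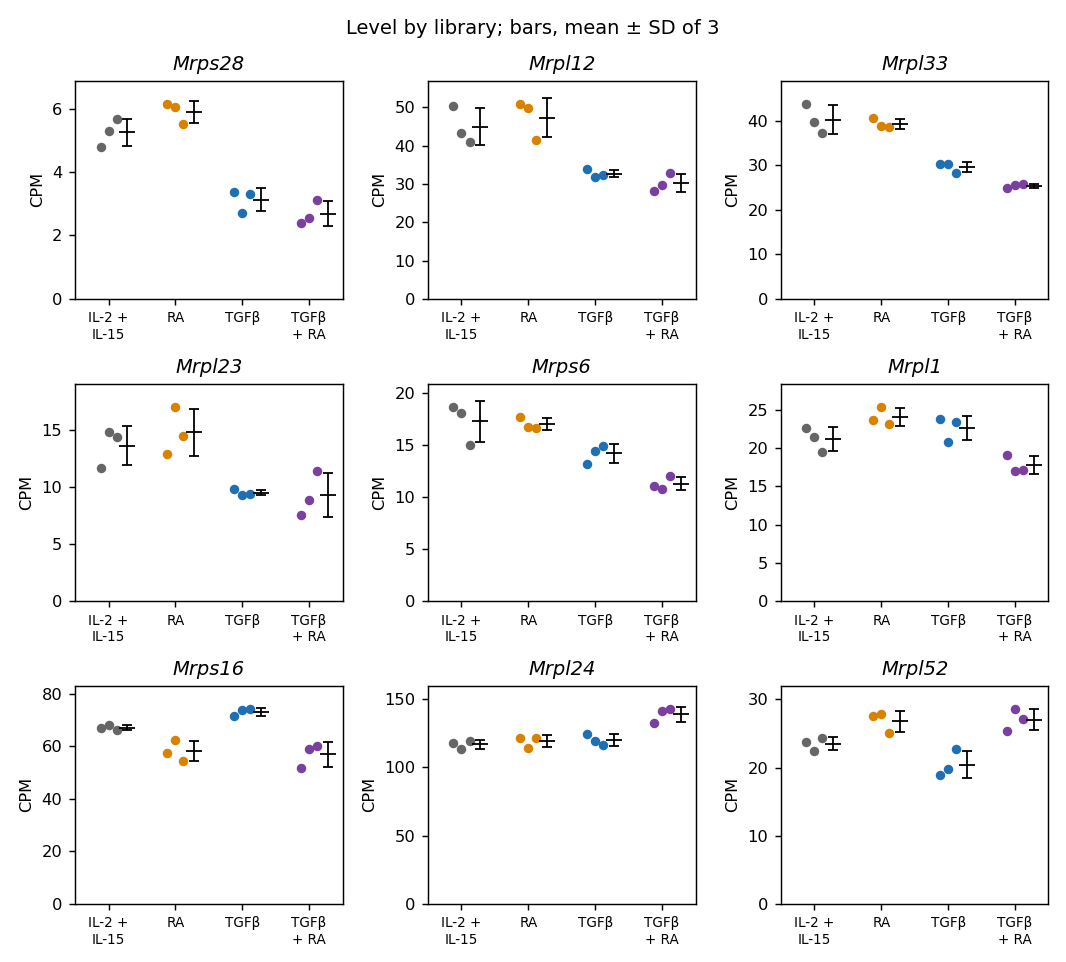
CPM by library (y axis from 0) for 9 genes and 4 treatments (x axis), points being libraries and bars the mean ± SD of 3. Mrps28, Mrpl12, Mrpl33, Mrpl23 and Mrps6 are lower in the 6 libraries with TGFβ, Mrpl1 is lowest with both agents, Mrps16 is lower with RA in both settings, and Mrpl24 is highest with both agents.

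The effect of TGFβ was compared next in the presence of RA. Against RA, TGFβ + RA lowered 35 of the 76 genes and raised 2, where 30.8% of all genes were lower and 29.4% higher. The median of the members was -0.15 against 0.00 for all genes, with 61 of 76 negative. By subunit, 24 of 49 large subunit genes and 11 of 26 small subunit genes fell. The members' share called lower was 46.1%. Scaled by library totals the split was 7 higher and 25 lower (32.9% lower, against 25.9% of all genes), with medians of -0.07 and 0.08. Without the 3 libraries that stand apart it was 2 higher and 39 lower (51.3%, against 31.6%).

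The largest decreases after Mrps28 were Mrpl23 (log2 fold change -0.67, SE 0.15, adjusted p = 0.00138), Mrpl12 (-0.65, SE 0.09, adjusted p = 3.94e-05) and Mrpl33 (-0.63, SE 0.06, adjusted p = 1.56e-06). Mrps6, a small subunit protein with a bacterial counterpart, followed (-0.59, SE 0.09, adjusted p = 9.97e-05). Its levels were 17.6, 16.7 and 16.6 CPM in RA and 11.1, 10.7 and 11.96 CPM in TGFβ + RA. The IL-2 + IL-15 libraries had 18.6, 18.1 and 15.0 CPM and the TGFβ libraries 13.2, 14.4 and 14.9 CPM, so all 6 libraries with TGFβ were below all 6 without it, by a narrow margin for TGFβ alone. The TGFβ difference without RA was -0.28 (SE 0.09, adjusted p = 0.0231), and 5 alternatives ended that call, with adjusted p up to 0.0942. Mrps6 shares 19.9% of its exon bases with Slc5a3, a sodium/inositol cotransporter gene, and Gm49711 on the same strand. Slc5a3 itself was not called in this contrast (-0.14, adjusted p = 0.200). Mrpl45, which anchors the mitoribosome to the inner membrane, was at 62.3, 52.9 and 42.7 CPM in RA and 38.2, 38.1 and 31.5 CPM in TGFβ + RA (-0.55, SE 0.13, adjusted p = 0.00199). RA replicate 3 was the lowest of its group and TGFβ + RA replicate 3 the lowest of all 12.

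The 2 TGFβ contrasts share no library. Lower in both were 19 genes, which is 79.2% of the 24 without RA and 54.3% of the 35 with RA. The same overlap was not counted over all genes, so these shares cannot be called a trait of the members. Across the 76 genes the TGFβ log2 fold changes without and with RA had a Pearson r of 0.75, against 0.70 across all 14009 genes, as a description over genes that share libraries within each contrast. Of the 19, the call held under every alternative in both contrasts for 10: Mrps28, Mrps18b, Mrpl12, Mrpl19, Mrpl23, Mrpl30, Mrpl33, Mrpl35, Mrpl48 and Mrpl57. Counted by overlap alone, 18 of 76 genes (23.7%) had all 6 libraries with TGFβ below all 6 without it, where 14.4% of all genes did. None of the 76 had all 6 above, against 12.7% of all genes. These overlap counts are given only for TMM values of all 12 libraries. The excess of lower calls with TGFβ alone depended on the scaling and on IL-2 + IL-15 replicate 1.

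**Figure D3:**
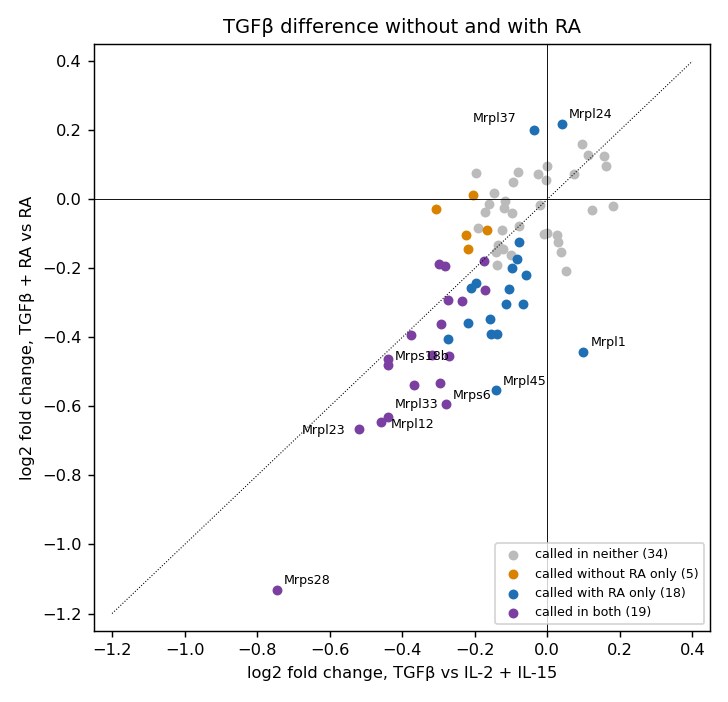
Log2 fold change with TGFβ in cultures without RA (x axis) and with RA (y axis) for the 76 genes, coloured by call, with the line of equal values dotted. Of the genes, 19 are called in both contrasts, all lower, and Mrpl1 stands off to the right of the line, at 0.10 without RA and -0.44 with RA.

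The 2 genes that rose with TGFβ + RA against RA were Mrpl24 and Mrpl37. Mrpl24, a large subunit protein with a bacterial counterpart and the most abundant of the 76 per length, stood at 118, 113 and 120 CPM in IL-2 + IL-15 and at 122, 115 and 122 CPM in RA. It stood at 125, 120 and 116 CPM in TGFβ and at 133, 141 and 143 CPM in TGFβ + RA. The 3 libraries with both agents were above the other 9. It rose against RA (log2 fold change 0.22, SE 0.05, adjusted p = 0.00126), against TGFβ (0.21, SE 0.05, adjusted p = 0.00282) and against IL-2 + IL-15 (0.25, SE 0.05, adjusted p = 0.000433), and these calls held under every alternative. The interaction of the agents was not called for it (0.18, SE 0.07, adjusted p = 0.0757). Of its exon bases 26.3% overlap Rrnad1 on the opposite strand, a neighbour named after its values were seen, which was also higher against RA (0.54, adjusted p = 4.7e-05) and against IL-2 + IL-15 (0.43, adjusted p = 0.000252) but was not called against TGFβ (0.14, adjusted p = 0.153). Mrpl37, a mitochondrion-specific large subunit protein, was higher against RA (0.20, SE 0.06, adjusted p = 0.00728), a call that ended without RA replicate 1 (adjusted p = 0.0602).

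With both agents against neither, 33 of the 76 genes fell and 4 rose, where 32.4% of all genes were lower and 30.8% higher. The median was -0.15 against 0.00, with 53 of 76 negative. This contrast shares its IL-2 + IL-15 libraries with the TGFβ contrast and its TGFβ + RA libraries with the contrast above, so its values are given side by side with theirs and are no independent support. Scaled by library totals, 9 were higher and 24 lower (31.6% lower, against 28.5% of all genes). Without the 3 libraries that stand apart 4 were higher and 28 lower (36.8%, against 30.2%), and without IL-2 + IL-15 replicate 1 alone 2 and 25 (32.9%, against 30.3%). By origin, 14 of 30 large subunit genes with a bacterial counterpart fell, 6 of 19 large subunit genes specific to mitochondria, 8 of 16 small subunit genes with a bacterial counterpart and 4 of 10 specific to mitochondria.

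The lowest were again Mrps28 (log2 fold change -0.96, SE 0.14, adjusted p = 5.12e-05), Mrpl33 (-0.66, SE 0.06, adjusted p = 6.87e-07), Mrps6 (-0.61, SE 0.09, adjusted p = 5.88e-05), Mrpl12 (-0.57, SE 0.09, adjusted p = 9.64e-05) and Mrpl23 (-0.54, SE 0.14, adjusted p = 0.00499). Mrpl4, a large subunit protein with a bacterial counterpart, was at 68.6, 62.2 and 61.2 CPM in IL-2 + IL-15 and at 46.2, 45.7 and 46.5 CPM with both agents (-0.47, SE 0.06, adjusted p = 1.57e-05). The means with RA alone and TGFβ alone lay between, at 58.6 ± 4.6 and 57.3 ± 1.88 CPM (SD, n = 3). The rises other than Mrpl24 were smaller. Mrpl37 rose by 0.16 (adjusted p = 0.0258), Mrpl10 by 0.17 (adjusted p = 0.0405) and Mrpl52 by 0.20 (adjusted p = 0.0339), and leaving out single libraries ended each of these 3 calls, with adjusted p up to 0.0943, 0.126 and 0.132.

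**Figure D4:**
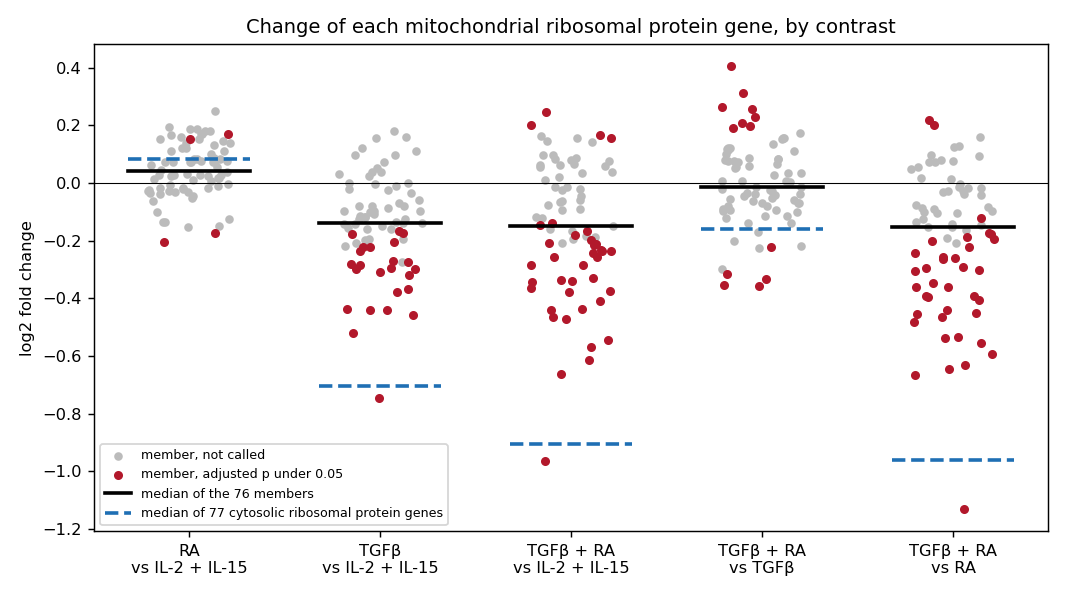
Log2 fold change (y axis) of each of the 76 genes in the 5 contrasts of 2 groups (x axis), red where called. The black line is the median of the 76 and the dashed blue line that of 77 cytosolic ribosomal protein genes, which sits far lower in the 3 contrasts that add TGFβ.

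RA alone changed few of these genes. Against IL-2 + IL-15, 2 rose and 2 fell, where 12.4% of all genes were higher and 14.3% lower. The median was 0.04 against 0.00, with 25 of 76 negative. That median was 0.09 without RA replicate 3 or without IL-2 + IL-15 replicate 1, 0.02 without IL-2 + IL-15 replicate 3 and 0.11 without the 3 libraries that stand apart. Mrpl9, a large subunit protein, went from 92.1, 91.9 and 91.2 CPM to 108, 101 and 96.8 CPM (log2 fold change 0.15, SE 0.05, adjusted p = 0.0298). Mrpl35, a large subunit protein with a bacterial counterpart, went from 20.1 ± 0.65 CPM to 22.6 ± 0.22 CPM (SD, n = 3, 0.17, SE 0.06, adjusted p = 0.0443). Mrps16 fell from 67.1, 67.9 and 66.1 CPM to 57.6, 62.3 and 54.5 CPM (-0.21, SE 0.06, adjusted p = 0.0243), and Mrps17, also of the small subunit, from 47.1 ± 0.86 CPM to 41.8 ± 1.32 CPM (-0.17, SE 0.05, adjusted p = 0.0201). The groups did not overlap for any of the 4, but all 4 calls ended under some alternative, with adjusted p up to 0.0952, 0.209, 0.109 and 0.112.

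The RA count changed most with 1 library. Without RA replicate 3, 11 of the 76 were higher (14.5%) and 1 lower (1.32%), where 16.1% of all genes were higher and 16.3% lower. Without the 3 libraries that stand apart, 16 were higher (21.1%) and 1 lower (1.32%), against 15.7% and 16.4% of all genes. Fitted on the 6 samples of the contrast alone, 0 were called in either direction, where 9.26% of all genes were higher and 10.2% lower. Scaled by library totals 1 was higher (1.32%) and 2 lower (2.63%), against 11.3% and 15.3% of all genes.

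**Figure D5:**
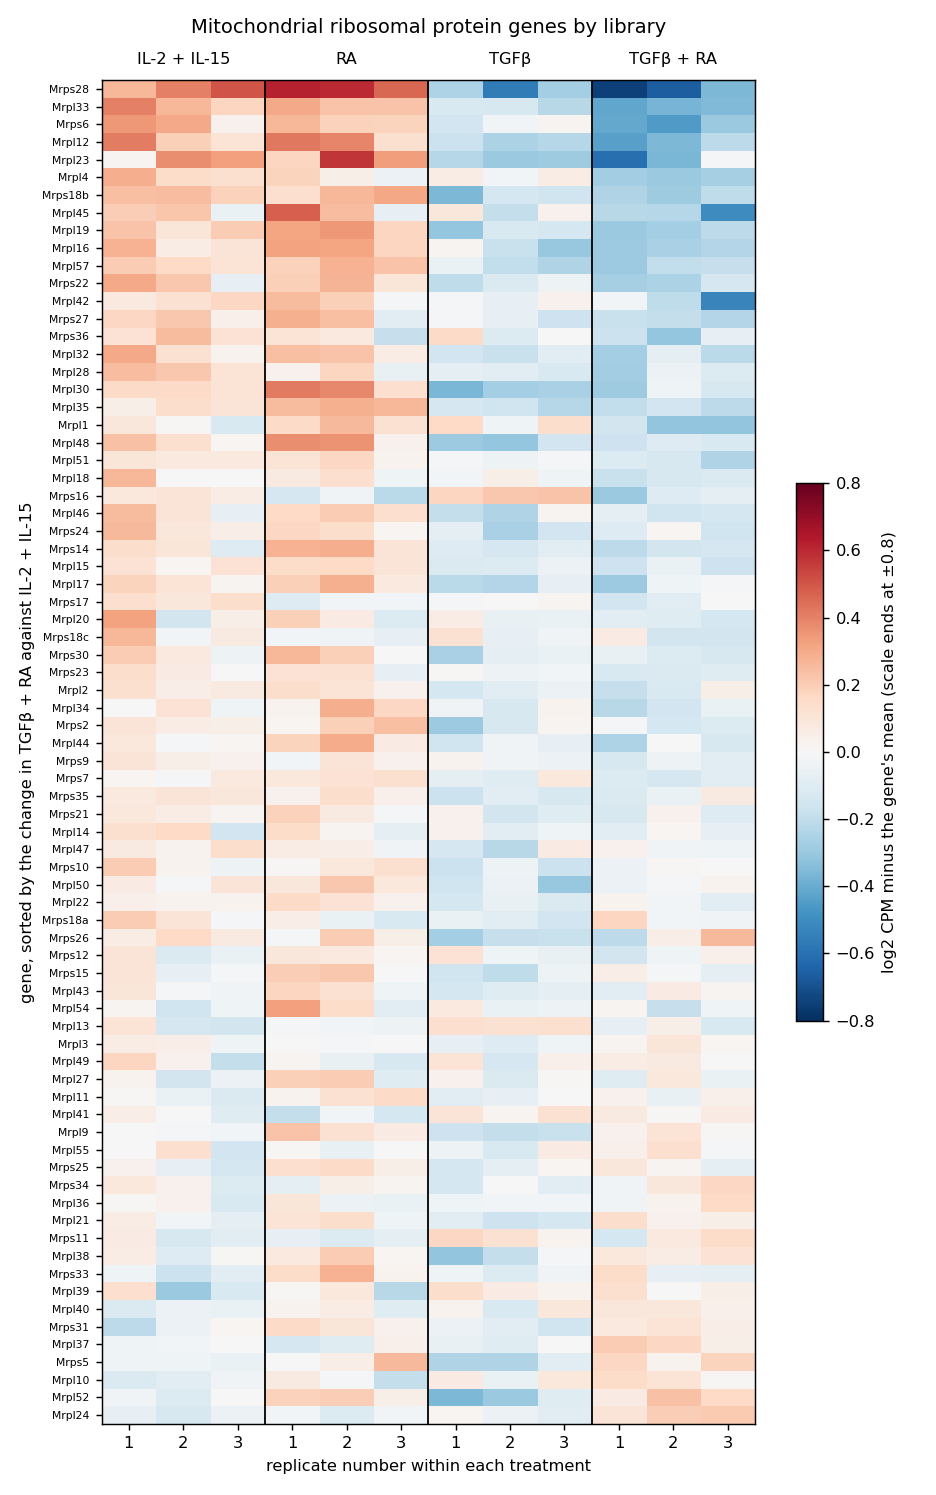
Heat map of log2 CPM minus each gene's mean (colour, ends at ±0.8) for the 76 genes (rows, sorted by the change with both agents against neither) and 12 libraries (columns, by treatment). Genes in the upper part are red in the 6 libraries without TGFβ and blue in the 6 with it, and a smaller group at the foot of the map is red with both agents.

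Added on top of TGFβ, RA gave calls both ways, each for a smaller share of these genes than of all genes. Against TGFβ, TGFβ + RA raised 8 of the 76 (10.5%) and lowered 5 (6.58%), where 20.3% of all genes were higher and 22.7% lower. The median was -0.01 against 0.01, and 39 of 76 were negative. Scaling by library totals left 8 and 5, against 20.8% and 22.4% of all genes. Without the 3 libraries that stand apart 7 were higher (9.21%) and 8 lower (10.5%), against 20.4% and 23.1% of all genes. Of the 8 that rose, 6 encode large subunit proteins, and of the 5 that fell, 3.

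Mrpl52, a mitochondrion-specific large subunit protein, rose most. It was at 18.9, 19.7 and 22.7 CPM in TGFβ and at 25.4, 28.6 and 27.1 CPM in TGFβ + RA (log2 fold change 0.41, SE 0.08, adjusted p = 0.000857). Its levels without TGFβ were 23.8, 22.5 and 24.3 CPM in IL-2 + IL-15 and 27.6, 27.8 and 25.02 CPM in RA, so the 6 libraries with RA lay above the 6 without it, although RA alone was not called (0.19, adjusted p = 0.0905). Mrps5, a small subunit protein, was at 35.4, 35.5 and 39.5 CPM in TGFβ and 47.0, 42.8 and 47.5 CPM with both (0.31, SE 0.07, adjusted p = 0.00283). Mrpl38 rose by 0.26 (SE 0.08, adjusted p = 0.0168), but not without TGFβ replicate 1, TGFβ replicate 2 or TGFβ + RA replicate 3 (adjusted p up to 0.084). Mrpl9, lower with TGFβ alone (-0.16, adjusted p = 0.0127, but 0.0776 with library totals), rose by 0.23 (SE 0.05, adjusted p = 0.00162), from 82.5, 81.1 and 81.8 CPM to 94.5, 99.7 and 93.0 CPM.

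In the other direction, Mrps16, a small subunit protein with a bacterial counterpart, was at 71.4, 73.7 and 74.1 CPM in TGFβ and at 51.6, 59.0 and 60.0 CPM in TGFβ + RA (log2 fold change -0.36, SE 0.06, adjusted p = 0.000344). Mrpl1, the protein of the L1 stalk, fell by 0.35 (SE 0.08, adjusted p = 0.00304), Mrpl4 by 0.31 (SE 0.06, adjusted p = 0.00103) and Mrpl33 by 0.22 (SE 0.06, adjusted p = 0.0118). Mrps6 fell by 0.33 (SE 0.09, adjusted p = 0.0111), a call that ended without TGFβ + RA replicate 2 (adjusted p = 0.0513). Between the 2 RA contrasts, which share no library, Mrpl9 was higher in both and Mrps16 lower in both. Across the 76 genes the RA effects without and with TGFβ had a Pearson r of 0.27, against 0.58 across all genes. With RA alone the members' changes ran from -0.21 to 0.25 with a median SE of 0.075, where all genes ran from -6.89 to 8.54. Small changes beside their error hold r down, so the 2 values of r are not on a like footing.

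Whether the agents acted differently together than apart was tested as the interaction. For the 76 genes 0 were higher and 1 lower than the sum of the single effects, where 6.95% of all genes were higher and 12.3% lower. At an unadjusted p under 0.05 there were 4 higher and 7 lower, and DESeq2 called 0 and 1. The 1 gene was Mrpl1 (chr5:96209493-96266727, plus strand, no exon overlap). With both agents it was at 19.1, 17.04 and 17.1 CPM. With TGFβ alone it was at 23.7, 20.7 and 23.3 CPM, with RA alone at 23.6, 25.4 and 23.1 CPM, and with neither at 22.6, 21.4 and 19.4 CPM. The 3 libraries with both agents were the lowest of the 12. The RA libraries lay above the IL-2 + IL-15 range and the TGFβ libraries overlapped it. The interaction was -0.54 on the log2 scale (SE 0.11, adjusted p = 0.00469), with adjusted p of 0.000558 to 0.0169 over the alternatives. Library totals gave 2 higher and 1 lower, leaving out RA replicate 3 gave 1 and 5, and leaving out the 3 libraries that stand apart gave 1 and 13, where 12.2% and 17.7% of all genes were called. Without those 3, Mrpl12 was among the 13 (-0.45, adjusted p = 0.00142) and rose with RA alone (0.27, adjusted p = 0.0041).

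The proteins of ribosomal protein S18 illustrate how near relatives differed. Vertebrates have 3 mitochondrial relatives of the bacterial S18, of which Mrps18a sits in the large subunit and Mrps18b and Mrps18c in the small. Mrps18b fell in each contrast that adds TGFβ (-0.44, -0.47 and -0.48). Mrps18a was at 24.3 ± 1.84 CPM with neither agent, 22.04 ± 1.34 with RA, 21.1 ± 0.73 with TGFβ and 23.3 ± 1.84 with both (SD, n = 3), with -0.20 for TGFβ (SE 0.08, adjusted p = 0.056), a difference called under the replicate block (adjusted p = 0.0141). Mrps18c, in the same order, was at 14 ± 1.44, 12.6 ± 0.23, 13.1 ± 0.89 and 12.3 ± 1.05 CPM, with -0.19 for both agents against neither (SE 0.09, adjusted p = 0.0948). It shares 23.2% of its exon bases with Gm43511 on the same strand. Whether the 3 relatives differ from each other in their change was not tested.

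Of the further panel genes described here, 4 were called in 1 contrast each and 4 in none. Mrpl44, a large subunit protein, was called in 1 contrast, lower with TGFβ + RA against RA (-0.30, SE 0.08, adjusted p = 0.00403), as were Mrps30, a large subunit protein in spite of its name (-0.26, SE 0.08, adjusted p = 0.0179), and Mrps2 of the small subunit (-0.24, SE 0.08, adjusted p = 0.0189). The calls for Mrps30 and Mrps2 ended under library totals and without single libraries, with adjusted p up to 0.0937 and 0.123. Mrps36, which despite its symbol belongs to the 2-oxoglutarate dehydrogenase complex and not to the mitoribosome, went from 15.0 ± 0.83 to 11.8 ± 0.99 CPM with both agents against neither (SD, n = 3, -0.34, SE 0.10, adjusted p = 0.00992). That call ended without TGFβ + RA replicate 2 (adjusted p = 0.0563). Mrps12, a protein of the decoding centre, Mrpl11, Mrpl47 and Mrpl55 were called in no contrast, with TGFβ log2 fold changes of 0.03, 0.00, -0.17 and -0.02 and SE of 0.08, 0.07, 0.09 and 0.09. In all, 27 of the 76 genes were called in none of the 6 contrasts. The same count was not made over all genes, so whether 27 is few or many cannot be said. In simulated counts made from these libraries, the TGFβ test recovered 40.6% of genes changed by 0.32 on the log2 scale. It recovered 64.1% of those changed 1.5-fold and 87.3% of those changed 2-fold. Most members that fell did so by less than 1.5-fold. The simulation changed only 64, 64 and 71 of 13787 genes, picked at random, where the data had 3135 genes called lower and 2899 higher. Its recovery therefore does not give the share of changed members that was found.

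The head-to-head pair of Mrpl46 and Mrps11, chosen after its values were seen, had no common direction. Mrpl46 was at 20.3 ± 2.22 CPM in IL-2 + IL-15 and 17.2 ± 1.67 CPM in TGFβ (SD, n = 3, log2 fold change -0.23, SE 0.09, adjusted p = 0.0455), a call that ended under 16 of 19 alternatives with adjusted p up to 0.204. Mrps11 was at 16.6 ± 1.18 and 18.5 ± 0.90 CPM (0.16, adjusted p = 0.146). In the motif groups, 5 of 8 genes with the NRF1 core fell with TGFβ and 15 of 59 without it, while with both agents against neither 3 of 8 and 26 of 59 fell. Of the 23 genes with the ETS motif 6 fell with TGFβ, and of the 44 without it 14. The shares of all genes called lower were 22.4% with TGFβ and 32.4% with both agents against neither. The motif counts are given as descriptions without a test.

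Leaving out the 17 genes with over 10% exon overlap left 59, of which 18 fell with TGFβ and 0 rose, 26 fell and 1 rose with TGFβ + RA against RA, and 24 fell and 2 rose with both agents against neither. The medians were -0.14, -0.15 and -0.15. In the same order, the shares of these genes called lower were 30.5%, 44.1% and 40.7%, against 22.4%, 30.8% and 32.4% of all genes. The shares called higher were 0%, 1.7% and 3.39%, against 20.7%, 29.4% and 30.8%. These values are given only for TMM scaling of all 12 libraries. Among all members, the excess of lower calls with TGFβ alone depended on the scaling and on IL-2 + IL-15 replicate 1. Whether it does so for these 59 was not tested.

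Subunits of the mitoribosome that carry other names followed. Dap3, a GTP-binding protein of the small subunit, was at 80.5 ± 1.71 CPM with neither agent, 72.3 ± 2.27 with RA, 47.6 ± 4.96 with TGFβ and 51.0 ± 2.14 with both (SD, n = 3). It fell by 0.76 with TGFβ (SE 0.07, adjusted p = 8.88e-07) and by 0.50 against RA (SE 0.07, adjusted p = 1.94e-05). Of these 6 genes, 5 fell in each of the 3 contrasts that add TGFβ and 0 rose, with Chchd1, Aurkaip1, Gadd45gip1 and Ptcd3 beside Dap3. Ict1 (Mrpl58), a peptidyl-tRNA hydrolase that frees stalled ribosomes, was the sixth, with 0.07 for TGFβ (SE 0.06, adjusted p = 0.432). Over all genes, 22.4% were lower with TGFβ, 32.4% with both agents against neither and 30.8% with both against RA. In the RA contrast 0 of the 6 were called, where 12.4% of all genes were higher and 14.3% lower.

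Among 23 assembly factors of the mitoribosome, 8 fell (34.8%) and 1 rose (4.35%) with TGFβ, against 22.4% and 20.7% of all genes. With both agents against neither 8 fell (34.8%) and 5 rose (21.7%), against 32.4% and 30.8% of all genes. Noa1, a GTPase of small subunit assembly, went from 36.6 ± 2.61 CPM to 23.7 ± 1.26 CPM with TGFβ and 18.2 ± 1.252 CPM with both (SD, n = 3, log2 fold changes -0.62 and -1.01, adjusted p = 1.11e-05 and 4.82e-08). Rbfa, which also acts in small subunit assembly, fell by 0.53 and by 0.50 (adjusted p = 7.06e-05 and 5.15e-05). Nsun4, an rRNA methyltransferase, rose by 0.45 and by 0.50 (adjusted p = 0.00011 and 1.86e-05), so the list did not move one way.

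The other lists were mixed as well. Over all genes, 22.4% were lower and 20.7% higher with TGFβ, and 32.4% and 30.8% with both agents against neither. Translation factors stood at 33.3% lower and 13.3% higher with TGFβ, and at 26.7% and 13.3% with both agents. The synthetases below stood at 25% and 10%, then 35% and 40%. Genes of DNA and RNA synthesis stood at 30.8% and 0%, then 38.5% and 15.4%. Whether a list differed from all genes was not tested. Of 15 translation factors 5 fell and 2 rose with TGFβ, led by Tufm, the elongation factor that brings aminoacyl-tRNA to the ribosome (-0.47, SE 0.07, adjusted p = 7.26e-05), and Lrpprc, which stabilises mitochondrial mRNAs (-0.33, SE 0.06, adjusted p = 0.000336). With both agents against neither 4 fell and 2 rose. The initiation factor Mtif2 was one that rose, by 0.45 (adjusted p = 5.36e-05). Of 20 mitochondrial tRNA synthetases and amidotransferase subunits, 5 fell and 2 rose with TGFβ, and 7 fell and 8 rose with both agents. Of 13 genes of mitochondrial DNA and RNA synthesis, 4 fell and 0 rose with TGFβ and 5 fell and 2 rose with both. The catalytic subunit of the mitochondrial DNA polymerase, Polg, was lower with RA alone (-0.69, SE 0.10, adjusted p = 0.000133).

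Of 9 tested regulators of mitochondrial genes, 3 fell and 1 rose with TGFβ, where 22.4% of all genes were lower and 20.7% higher. With both agents against neither 2 fell and 4 rose, where the shares of all genes were 32.4% and 30.8%. With both against TGFβ 0 fell and 5 rose, where those shares were 22.7% and 20.3%. Myc, a driver of ribosome and mitochondrial biogenesis, went from 232 ± 4.27 CPM in IL-2 + IL-15 to 104 ± 4.91 CPM in TGFβ (SD, n = 3, log2 fold change -1.15, SE 0.05, adjusted p = 1.17e-09). It was at 281 ± 11.51 CPM in RA, above IL-2 + IL-15 (0.28, SE 0.05, adjusted p = 0.000652), and at 115 ± 2.48 CPM with both agents. Pprc1, a coactivator of NRF1, was at 90.6 ± 2.50, 88.6 ± 5.39, 50.9 ± 4.01 and 47.4 ± 3.06 CPM in the 4 groups, with -0.83 for TGFβ (SE 0.07, adjusted p = 4.89e-07). Max, the partner of Myc, rose with TGFβ by 0.30 (SE 0.04, adjusted p = 3.61e-05). The factors whose motifs were searched, named after their values were seen, moved less: Nrf1 rose by 0.19 with both agents against neither (adjusted p = 0.0028), Gabpb1 fell by 0.17 with TGFβ (adjusted p = 0.0212, up to 0.101 over the alternatives), and Gabpa and Yy1 were called in no contrast of 2 groups.

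The cytosolic ribosome and the messages of mitochondrial DNA were listed for comparison. All 77 cytosolic ribosomal protein genes fell with TGFβ (median log2 fold change -0.70). All 77 also fell with both agents against neither (-0.91) and with both against RA (-0.96). In the interaction 31 were lower (40.3%) and 0 higher, against 12.3% and 6.95% of all genes. Of the 12 mRNAs encoded in mitochondrial DNA that were tested, the messages that the mitoribosome translates, 4 fell with TGFβ (33.3%), 8 with both agents against neither (66.7%) and 5 with both against TGFβ (41.7%), and 0 rose in these contrasts. The shares of all genes called lower there were 22.4%, 32.4% and 22.7%, and whether the mRNAs differed from the members was not tested. Their share of all counts was 1.87% ± 0.130, 1.75% ± 0.0680, 1.66% ± 0.0553 and 1.31% ± 0.0929 with neither agent, RA, TGFβ and both (SD, n = 3), and the 3 libraries with both agents were the lowest of the 12. These poly(A)-selected libraries reflect mitochondrial mRNAs by their tails. Among them mt-Nd1, for a subunit of respiratory complex I, fell by 0.80 with both agents against neither (SE 0.07, adjusted p = 1.86e-07) and mt-Co1, for a subunit of cytochrome c oxidase, by 0.61 (SE 0.07, adjusted p = 4.16e-06).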

How the data were processed

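RNA from 12 cultures was extracted with RNeasy Micro columns and sequenced from stranded, poly(A)-selected libraries, per the labels' protocols. Whole-number read counts, not normalized, were deposited for each gene. They were made with STAR and featureCounts on GRCm38, per the submitters' processing notes, whose versions and strand setting are not given in the sources used here. 0 sample columns were left unused and 0 rows named no gene.

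Counts were scaled by TMM and filtered with filterByExpr (minimum count 10). All 12 libraries entered 1 edgeR 4.0.16 quasi-likelihood fit (R 4.3.3) with 8 residual degrees of freedom, and p-values were adjusted over 14009 genes. The standard error is the log2 fold change divided by the root of F. Alternatives were DESeq2 1.42.0 (size factors and Wald test), library totals, no filter, a replicate block, the 6 samples of a contrast, each library left out and, added after seeing the data, the 3 libraries that stand apart left out. Same-numbered IL-2 + IL-15 and RA libraries deviated together (correlations 0.341, 0.13 and 0.271), a pairing seen in the data that the labels do not state. The procedure was tested on simulated data. Positions come from GENCODE M21, and promoters from RefSeq (GRCm38.p6).

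The members and lists were chosen with earlier results of these data known. Named were a panel of 14 genes, up to 5 called members per direction and contrast without overlap between groups and with at least 5 CPM (3 for the interaction), the 5 highest and lowest per length, and up to 3 called genes per comparison list. Other names (Mrpl32, Mrpl39, Mrpl46, Mrps11 and the neighbouring genes among them) were chosen after their values were seen.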

Additional observations from a re-analysis of the deposited data

Results flagged for a closer look

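Mrpl1 stood out because the effect of TGFβ differed between cultures without and with RA by the test of that difference itself. The log2 fold change with TGFβ was 0.10 without RA (adjusted p = 0.337) and -0.44 with RA (adjusted p = 0.000358), and the difference was -0.54 (edgeR quasi-likelihood interaction, SE 0.11, adjusted p = 0.00469).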

How the results depend on the processing

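With RA alone, the count of higher genes, 2, became 1 with library totals or the DESeq2 Wald test, 0 without the filter or with only the 6 samples, 16 without the 3 libraries that stand apart and 0 to 11 with single libraries left out, where 11 came without RA replicate 3. The count of lower genes, 2, became 1 without the filter or without the 3 libraries, 0 with only the 6 samples and 0 to 2 with single libraries left out. With TGFβ alone, 0 higher became 1 with DESeq2 size factors, the replicate block or only the 6 samples, 4 with library totals, 2 without the 3 libraries and 0 to 2 with single libraries left out. The 24 lower became 15 with library totals (19.7%, against 18.2% of all genes) and 15 to 30 with single libraries left out. The 30 came without RA replicate 3 (39.5%, against 24% of all genes). With both agents against neither, 4 higher became 9 with library totals, 2 without the filter and 1 to 5 with single libraries left out. With both against TGFβ, 8 higher became 5 to 9 with single libraries left out, and 5 lower became 10 with only the 6 samples, 8 without the 3 libraries and 5 to 8 with single libraries left out. With both against RA, 2 higher became 7 with library totals and 1 to 3 with single libraries left out. In the interaction, 0 higher became 2 with library totals, 1 with the replicate block or without the 3 libraries and 0 to 1 with single libraries left out. The 1 lower became 2 without the filter or with the block, 13 without the 3 libraries and 1 to 5 with single libraries left out. The share of all genes called moved with the setting too, so the counts are to be read beside it. With library totals, 5.26% of members and 27.6% of all genes were higher with TGFβ. The same shares were 11.8% and 36.6% for both agents against neither, and 9.21% and 36.6% for both against RA. Without the 3 libraries, 21.1% and 15.7% were higher with RA alone, and 17.1% and 17.7% were lower in the interaction. The cause of these changes was not tested.

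Of 116 calls for single members, 72 held in every alternative, 44 were lost in at least 1, and 0 reversed. Same-numbered samples had correlations of -0.004 to 0.341, of which 10 of 18 exceeded 0.1, against 1 of 36 pairs with different numbers. All 3 exceeded 0.1 for IL-2 + IL-15 with RA and not for the groups of the other contrasts, whose numbers were not taken to pair the samples. That cut is narrow for TGFβ with TGFβ + RA, at 0.098, 0.13 and 0.168, against -0.114 to -0.017 for different numbers. Over all pairs the median was 0.1045 for the same number and -0.055 for different numbers. The main fit used no pairing in any contrast. With the block, the lower counts were 2 for RA, 24 for TGFβ, 34 for both against neither, 7 for both against TGFβ and 35 for both against RA. The block changed no member's call for RA alone. The labels do not say whether samples came from separate animals.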
